A study of Homo sapiens with 2 samples.

Results

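PHF8 occupancy was profiled by chromatin immunoprecipitation and sequencing (ChIP-seq) in RKO, an established human colon carcinoma line. The cells had received either the vector or a plasmid that overexpresses APOC2, and each condition was represented by 1 library and 1 peak table. The regions described here are the strong PHF8 peaks of APOC2-transfected cells at the boundaries of protein-coding genes for which the vector-transfected cells had no peak. A region was taken when its summit pileup, the number of fragments stacked at the summit, was at least 35 in the APOC2 table, when its midpoint lay within 1 kb of an annotated end of a protein-coding gene, and when no vector peak overlapped it by even 1 bp. Of the 8928 APOC2 peaks, 650 met this rule, and 547 others met its first 2 conditions and were overlapped by a vector peak. The first are called unshared strong peaks below and the second shared strong peaks. The vector table held 4015 peaks. The choice itself used the APOC2 pileup, the distance to a gene end and the vector peak positions, so these are given as descriptions. Neither condition had a replicate, so the error between replicates is unknown, and every statement is about these 2 peak tables.

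PHF8 is a histone lysine demethylase of the Jumonji family. Its PHD finger binds a methyl mark that is found on the first nucleosomes of active genes, and its catalytic domain removes methyl groups that are associated with silent chromatin. It is known as a coactivator at CpG-rich promoters, including those of ribosomal RNA and cell cycle genes. APOC2 encodes apolipoprotein C-II, a secreted cofactor of lipoprotein lipase. Neither table listed a peak in or within 1 kb of the APOC2 or the PHF8 gene, and peak tables carry no expression level, so the overexpression itself was not checked here.

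The 5 promoter windows printed next show the kind of sequence over which these peaks lay. They are the first 4 unshared strong peaks by pileup whose promoter window overlapped the peak and which lay outside chromosomes 8 and 18, and, for contrast, the strongest shared peak that met the same conditions, which was chosen after its values were seen. Each window runs from 250 bases before to 50 bases after a RefSeq start site (GRCh38.p14), 5′ to 3′ on the strand of the gene. Capitals mark matches to the GC box (GGGCGG) and the CCAAT box (CCAAT), on either strand, and in the last window also the cyclic AMP response element TGACGTCA. LRCH4 lies at chr7:100586080-100586379 on the minus strand, MRPS5 at chr2:95121759-95122058 on the minus strand, FPGS at chr9:127802632-127802931 on the plus strand, CSRNP2 at chr12:51083547-51083846 on the minus strand, and NDUFB2, the shared one, at chr7:140696458-140696757 on the plus strand.
LRCH4: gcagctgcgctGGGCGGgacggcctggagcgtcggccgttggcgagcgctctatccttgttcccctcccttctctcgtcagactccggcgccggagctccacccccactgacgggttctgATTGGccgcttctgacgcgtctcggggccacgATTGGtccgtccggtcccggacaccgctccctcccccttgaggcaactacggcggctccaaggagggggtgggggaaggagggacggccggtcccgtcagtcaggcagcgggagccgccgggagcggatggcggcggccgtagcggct
MRPS5: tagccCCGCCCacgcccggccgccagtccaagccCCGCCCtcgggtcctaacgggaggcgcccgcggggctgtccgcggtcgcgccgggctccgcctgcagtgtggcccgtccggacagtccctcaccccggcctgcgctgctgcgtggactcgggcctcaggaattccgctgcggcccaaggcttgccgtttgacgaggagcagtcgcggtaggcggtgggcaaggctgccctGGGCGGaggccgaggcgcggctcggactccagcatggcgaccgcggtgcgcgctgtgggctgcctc
FPGS: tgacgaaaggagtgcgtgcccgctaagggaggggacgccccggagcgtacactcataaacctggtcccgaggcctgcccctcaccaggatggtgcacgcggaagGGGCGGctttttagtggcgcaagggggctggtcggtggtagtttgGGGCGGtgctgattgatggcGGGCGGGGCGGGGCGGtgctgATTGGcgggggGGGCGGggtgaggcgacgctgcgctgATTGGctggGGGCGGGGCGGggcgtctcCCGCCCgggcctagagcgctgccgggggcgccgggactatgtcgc
CSRNP2: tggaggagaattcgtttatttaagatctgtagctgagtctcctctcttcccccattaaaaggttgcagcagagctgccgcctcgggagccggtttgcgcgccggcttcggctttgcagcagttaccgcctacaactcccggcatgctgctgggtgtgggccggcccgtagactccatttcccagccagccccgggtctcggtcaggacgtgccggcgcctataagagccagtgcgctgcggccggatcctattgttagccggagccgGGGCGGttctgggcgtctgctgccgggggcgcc
NDUFB2: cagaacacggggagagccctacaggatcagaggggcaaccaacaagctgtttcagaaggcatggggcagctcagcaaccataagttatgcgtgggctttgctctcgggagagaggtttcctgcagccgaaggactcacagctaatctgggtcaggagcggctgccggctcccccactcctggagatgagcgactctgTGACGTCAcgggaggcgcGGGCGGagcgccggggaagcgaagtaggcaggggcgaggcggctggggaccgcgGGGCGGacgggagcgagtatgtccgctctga
The FPGS window held 9 GC boxes, some of them overlapping, and 2 CCAAT boxes. The MRPS5 window held 3 GC boxes and no CCAAT box, the LRCH4 window 1 GC box and 2 CCAAT boxes, and the CSRNP2 window 1 GC box. The GC content was 71.7% in the LRCH4 and FPGS windows, 75.7% in MRPS5, 63.7% in CSRNP2 and 64.3% in NDUFB2. A match describes these letters and is not evidence of a bound factor.

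The unshared strong peaks were found at 767 of the 20052 placed protein-coding genes, which is 3.83%. The shared strong peaks were found at 635 genes, or 3.17%, and any APOC2 peak at 4777 genes, or 23.8%. A single coding gene was assigned to 527 of the 650 unshared peaks, 2 genes to 119 and 3 or more to 4. For the shared peaks these numbers were 443, 99 and 5. Among all APOC2 peaks 62.7% had no vector partner, among those at coding boundaries 77.2%, and among the strong ones at coding boundaries 54.3% (95% Wilson interval 51.5 to 57.1). These percentages are fixed by the rule and nothing is read from them. The intervals here and below cover counting error over peaks, which are not replicates. Fragments sequenced after amplification, with no molecular identifiers, are not independent either.

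The strongest unshared peak had a pileup of 85 fragments and a fold enrichment of 6.80 over the local background. It lay at chr7:100585866-100586144, at the adjoining boundaries of LRCH4, a leucine-rich repeat protein gene, and FBXO24, an F-box protein gene, with its summit 114 bp inside LRCH4. The closest vector peak was 26442 bp away and had a pileup of 26.7. MRPS5, a protein of the small subunit of the mitochondrial ribosome, followed with a pileup of 67 and a fold enrichment of 6.69. FPGS, the enzyme that adds glutamate tails to folates and retains them in the cell, had a pileup of 66 and a fold enrichment of 5.67, and the closest vector peak lay 17030 bp from it. CNPY4 had 65 fragments, CSRNP2, a nuclear protein gene, 63, and the zinc finger gene ZSCAN25 62. SLC7A6, an amino acid transporter, also reached 62, ZKSCAN2, another zinc finger gene, 61, and PUS7, a pseudouridine synthase of transfer and messenger RNA, 60. The last of these 10 lay at RPL7A, a large-subunit ribosomal protein, and MED22, a Mediator subunit, with a pileup of 60. Their fold enrichments spanned 5.67 to 11.2, and the highest of these belonged to ZKSCAN2.

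High pileup and high fold enrichment picked different genes. The highest fold enrichment among the unshared strong peaks, 14.3, was at C19orf47/PLD3 with a pileup of 37 over a background of 1.66 fragments. ZNF596 had 13.5 with a pileup of 35, CD276, an immune checkpoint ligand, 12 with 37, and CHML/OPN3 12 with 37. DERL1, a component of endoplasmic reticulum protein export, had 11.8, ZMYND19 11.7, SLC2A8, a glucose transporter, 11.6, and SZRD1 11.5. ZKSCAN2 was the 1 gene in the first 10 by both measures, and MCUB, a subunit of the mitochondrial calcium uniporter, closed the list at 11. The longest unshared strong peak, 1657 bp, covered the region of CEBPD, a transcription factor gene. SEC16A, which organises export sites of the endoplasmic reticulum, had a peak of 1332 bp, TBC1D16/CCDC40 1233 bp, MCUB 1122 bp and LRBA 1001 bp.

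The pileup minimum cut through a continuum. At a pileup of exactly 35 there were 74 unshared strong peaks, and at 34, just outside, 102 unshared peaks at coding boundaries. Just inside were ZNF596, NOB1 with a fold enrichment of 9.22 and DHX38/TXNL4B with 8.81. Just outside were LRRC75B with 9.88, WWOX with 8.20 and PRPF39 with 8.08. Below the minimum were 2763 further unshared peaks at coding boundaries.

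Unshared strong peaks were weaker than the shared ones at the same kind of position. Their median pileup was 39 (quartiles 37 and 44, range 35 to 85), against 45 (39.5 and 54, range 35 to 133) for the shared. A pileup of 50 or more was reached by 65 of the 650 unshared peaks (10%) and by 189 of the 547 shared ones (34.6%). At 60 or more the counts were 10 (1.54%) and 87 (15.9%). The share without a vector peak fell from 70.9% of the 471 strong peaks with a pileup of 35 to 39 to 58.9% at 40 to 44, 43.4% at 45 to 49 and 25.6% of the 254 at 50 and over. The left panel of the plot of pileups shows the distributions, and the right panel the shares on chromosomes 8 and 9 and on the others.

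**Figure D1:**
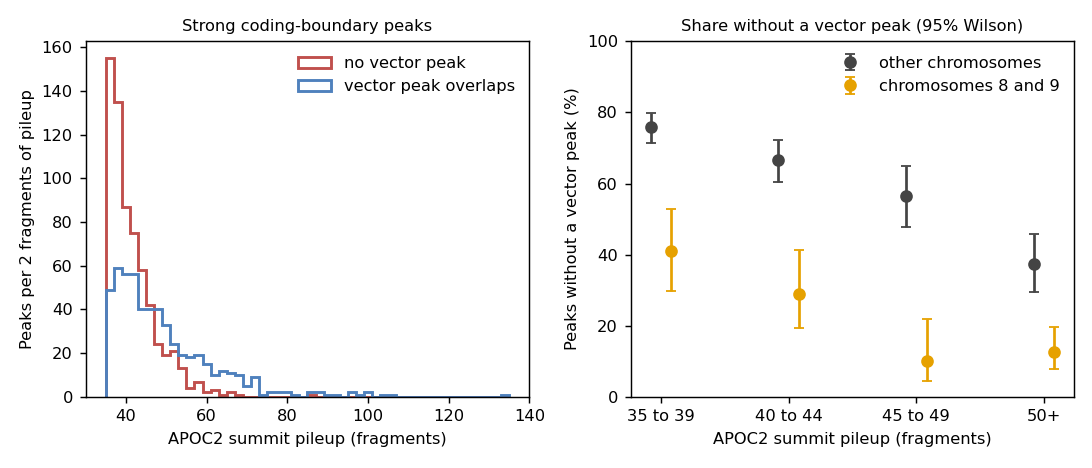
Left, number of strong coding-boundary peaks in the APOC2 table by summit pileup in fragments, without (red, 650) and with (blue, 547) an overlapping vector peak. Right, percentage without a vector peak by pileup class, with 95% Wilson intervals, on chromosomes 8 and 9 (40.9, 29.0, 10.2 and 12.5%) and on the others (75.8, 66.7, 56.5 and 37.3%).

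The overlapped peaks with the highest pileup are the reference for these values. POLR2J3, one of a set of near-identical RNA polymerase II subunit genes, had 133 fragments over a background of 31.6, and its fold enrichment was 4.11. MAF1/SHARPIN had 105 with a vector partner of 36.6, CCDC107 103 with a vector partner of 113.8, AMPD3 99 with 97.96 and NDUFB2, a complex I subunit, 99 with 66.3. The CCDC107 peak lay on RMRP, the RNA of the mitochondrial RNA processing endoribonuclease. The AMPD3 peak lay at the end of its gene, and the microRNA gene MIR4485 lay wholly inside that peak. The reads of near-identical genes can be assigned to the wrong copy, so POLR2J3 and its neighbour POLR2J are uncertain.

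Within each class of pileup, unshared strong peaks stood over a higher local background and were shorter. The background is the fragment count that the peak caller predicted for the site, worked out here from the deposited pileup and fold enrichment. In the class from 35 to 39, the median background was 6.17 fragments for the 334 unshared peaks and 4.17 for the 137 shared. It was 6.66 against 4.17 from 40 to 44, 7.44 against 4.99 from 45 to 49, and 7.49 against 5.83 at 50 and over. Fold enrichment is set by pileup and background, and its medians were 5.22 against 7.04 in the lowest class and 6.33 against 9.14 in the highest. In the lowest class the median pileup was 37 in both sets, so there the difference is that of the background by arithmetic. The class of 50 and over has no upper bound and is not matched, with a median pileup of 53 for unshared and 58 for shared peaks. Over all classes the median fold enrichment was 5.57 (quartiles 4.47 and 6.96) for unshared and 8.14 (6.51 and 10.3) for shared peaks, a ratio of 0.684 (0.623 to 0.722). The rule does not name background or length, but whether a vector peak is called at a site depends on the background there, so none of these is independent of the choice.

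Peak length followed the same division. The median length was 318 bp (range 218 to 1657) for the unshared strong peaks and 502 bp (233 to 2016) for the shared, a ratio of 0.633 (0.557 to 0.688). In the classes of pileup the unshared medians were 308, 316, 370 and 322 bp, and the shared medians 432, 488, 588 and 549 bp. Chromosomes 8 and 9 held 10% of the unshared and 42.4% of the shared strong peaks. Without them the unshared medians were 306, 313, 371.5 and 319 bp. The shared medians were then 425, 402, 491.5 and 448 bp, so the gap was smaller in each class. A length over 500 bp was found for 110 unshared peaks (16.9%) and 275 shared peaks (50.3%). A longer peak has more bases that a vector peak can touch, and the part of this in the difference was not tested.

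**Figure D2:**
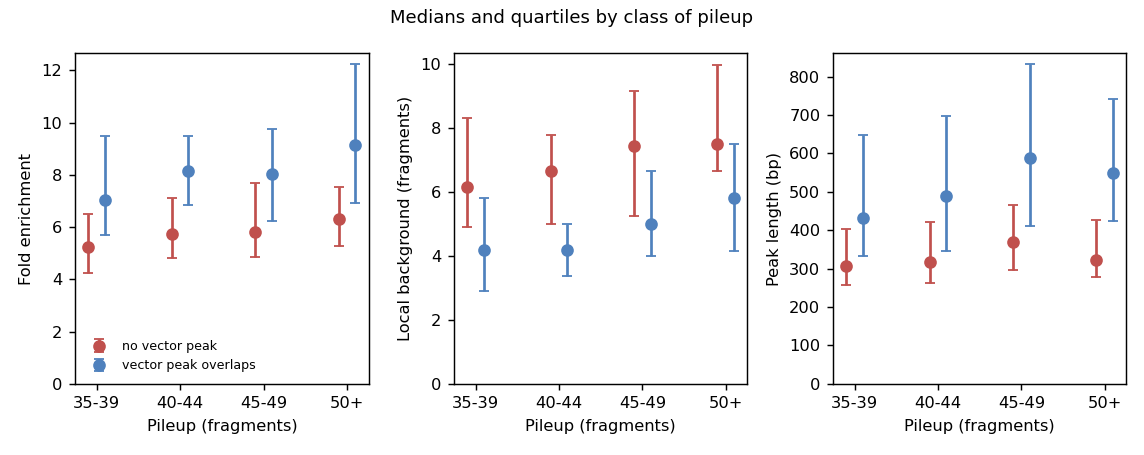
Medians (points) and quartiles (bars) of fold enrichment, local background in fragments and peak length in bp, by class of APOC2 pileup, for strong coding-boundary peaks without (red) and with (blue) an overlapping vector peak. In all 4 classes the unshared peaks had the lower median fold enrichment, the higher background and the shorter length.

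The vector table gives no value at the unshared sites, so the absence of a vector peak was read against the level at which a vector peak would have been listed. Vector peaks at coding boundaries numbered 1052, with a median pileup of 28.7 and a minimum of 9.90. The lowest listed -log10 p in the vector table was 4.70. Had 1 control library served for both tables, a vector summit over the background of each unshared strong peak would have needed a pileup with a median of 21.8 to reach that p. The APOC2 pileup, scaled to the depth of the control, was a median 2.28 times that level (2.21 to 2.36, quartiles 1.93 and 2.73, range 1.25 to 4.49), and 451 of the 650 exceeded 2 times. On the same measure the shared strong peaks stood higher, at a median 3.14 times the level (3.03 to 3.26). The shared strong peaks also have a measured vector value, and against that value, which is another denominator, the scaled APOC2 pileup was a median 1.62 times (1.59 to 1.65, quartiles 1.41 and 1.84) and was above it in 547 of 547. Both the unshared and the shared strong peaks were chosen on a high APOC2 pileup, which raises each of these ratios. An unshared peak at the pileup minimum with the median level already stands well above that level. STKLD1 is such a peak, with a level of 21.8 and a ratio of 1.93. The unshared ratios are thus set in part by the rule. They are not read as evidence that PHF8 was absent from these sites in vector-transfected cells. The caller also requires a minimum width, so the level is not a limit on the vector signal. At 493 shared strong peaks whose summits were under 100 bp apart, the scaled APOC2 background was a median 1.00 times the vector background, and 52.1% (47.7 to 56.5) were within 5% of it.

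Most unshared strong peaks were more than 100 kb from any vector peak. The median gap was 522 kb (425 to 624), and the smallest was 153 bp, at ARIH1. A vector peak lay within 500 bp of 16, within 1 kb of 20, within 10 kb of 33 and within 100 kb of 136 of the 650. The rule had already left out every peak that a vector peak touched. The gap was not worked out for other sites, so these distances are not read as particular to these peaks.

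All unshared strong peaks whose end of the gene could be told sat at starts of genes. The RefSeq promoter table, which carries strand, decided this for 547 of the 650, and 547 of these lay at a start and 0 at an end alone. It had no entry that decided the other 103, of which 23 were on chromosome 8. Among the shared peaks, 374 of 375 decided ones lay at a start. The rule did not separate starts from ends. A divergent pair or other set of at least 2 coding starts lay at 85 unshared peaks (15.5%, 12.7 to 18.8) and at 62 shared ones (16.5%, 13.1 to 20.6). LRCH4/FBXO24 and TAP1/PSMB9 are examples. A boundary of a non-coding gene lay within 1 kb of 150 unshared (23.1%) and 135 shared peaks (24.7%), in most cases a long non-coding RNA (140 and 117).

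The summits lay just inside the genes. For 535 unshared strong peaks with a listed coding start in the window, the median summit was 143 bp downstream of the start (136 to 147, quartiles 95.5 and 178). For 367 shared peaks it was 141 bp (134 to 150, quartiles 107 and 186), so the medians differed by less than their intervals. A summit 1 to 250 bp downstream was found in 80% of unshared (428 of 535) and 80.7% of shared peaks (296 of 367). Upstream summits numbered 89 (16.6%) and 52 (14.2%). Of these, 37 (41.6%) and 21 (40.4%) lay 1 to 250 bp downstream of another listed start. CNPY4, at -405 bp, and MRPS5, at -55 bp, were among the unshared peaks with upstream summits. The plot of summit positions shows the coinciding main modes.

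**Figure D3:**
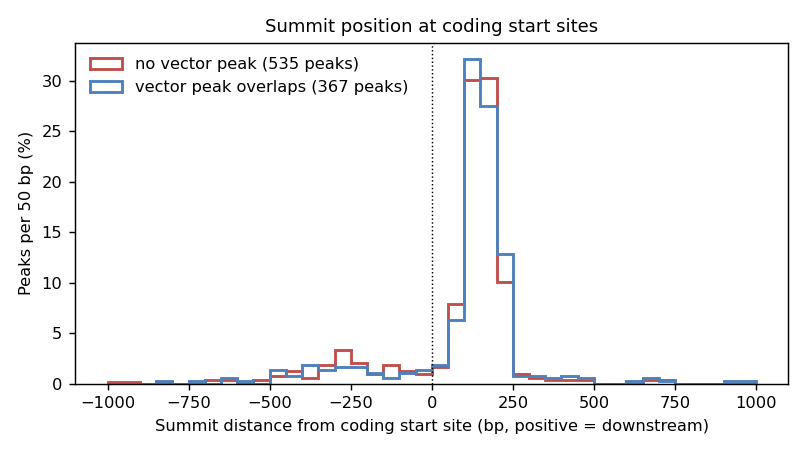
Percentage of peaks per 50 bp against the distance of the summit from the closest listed coding start site in bp, positive downstream, for unshared (red, 535 peaks) and shared (blue, 367 peaks) strong peaks. The main mode of each lies between 50 and 250 bp downstream, and the medians are 143 and 141 bp.

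The promoters under unshared strong peaks were rich in GC and CpG, as were those under the shared. The 530 promoter windows matched to unshared peaks had a median GC content of 71.7% (70.3 to 72.3). The 364 windows of shared peaks had 70.3% (69.0 to 71.3), the 2491 windows at weaker APOC2 peaks 67.7%, and the 11971 coding genes with no APOC2 boundary peak 61%. The median ratio of observed to expected CpG was 0.906, 0.897, 0.884 and 0.690 in the same order. CpG-rich windows, with GC over 55% and a ratio over 0.65, made up 94.3% (92.0 to 96.0), 90.1% (86.6 to 92.8), 85.9% and 48.7%, against 53.6% of all 22198 coding promoter windows. The unshared and shared strong peaks lay within a few percentage points of each other, and the intervals of both were clear of the genes without a peak. The promoter table used here held no window for genes of chromosome 8, which leaves out the 23 unshared and the 128 shared strong peaks there, and the windows of all coding genes lack that chromosome too. Peaks on other chromosomes are missing as well. A listed coding start lay in the window of 535 of the 650 unshared and 367 of the 547 shared strong peaks.

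Of 12 short motifs searched, the GC box, the ETS core, the NRF1 motif and the TATA box differed most between unshared peaks and genes without a peak. For each of them, unshared and shared peaks differed by less. The same held, with smaller differences, for the CCAAT box and the YY1 and E2F motifs. The GC box, bound by SP and KLF factors, was in 87.5% (84.5 to 90.1) of windows of unshared peaks, 84.9% (80.8 to 88.2) of shared, 79.7% of weaker and 52.6% of genes without a peak, and in 56.3% of all windows. The ETS core CCGGAAG was in 23.2, 19.0, 23.2 and 11.6% of these windows and in 12.8% of all. The NRF1 motif, GCGC followed by any 2 bases and GCGC again, was in 24.9% (21.4 to 28.8), 21.4% (17.5 to 25.9), 19.8% and 9.47%, and in 10.6% of all. For CCAAT, the box of NF-Y, the shares were 33.8, 32.7, 36 and 36.5%, and 34.7% of all, so this motif was about as frequent in genes with and without peaks. The TATA box TATAAA was found in 2.08% (1.16 to 3.68) of windows of unshared peaks, 3.30% (1.90 to 5.67) of shared and 11.4% of genes without a peak, and in 9.47% of all. The MYC E-box CACGTG was in 8.87, 9.62, 9.03 and 8.65%, and in 8.34% of all. The response element TGACGTCA was in 2.83, 3.85, 4.01 and 2.18%, and its core TGACGT, which it contains, in 10.2, 11.8, 13.3 and 8.69%. For TGACGTCA, its core and the E-box, unshared and shared peaks differed by more than unshared peaks and genes without a peak. The intervals of unshared and shared peaks overlapped for each of them, and TGACGTCA rested on 15 and 14 windows. The YY1 motif AAGATGGC was in 4.72, 4.95, 6.26 and 3.33%. An E2F motif, TTT, then C or G, then GCGC, was in 2.26, 2.75, 2.29 and 1.43%, and the ZBTB33 and ZNF143 motifs were in under 2% of each set. Matches were searched on both strands. The median summit, 143 bp downstream, lies outside these windows, which end 50 bases after the start. GC-rich windows hold GC-rich words more often, and the part of base composition in these shares was not tested.

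Unshared strong peaks were spread unevenly over the genome. Chromosome 7 had 69, chromosome 16 had 61, chromosome 12 had 49, chromosome 1 had 48 and chromosome 9 had 42, and the X chromosome had 1, at the translation initiation factor gene EIF1AX. As a share of coding genes, chromosome 16 led with 9.48%, followed by chromosome 7 with 8.10%, 21 with 6.28% and 9 with 5.78%, against 3.83% of all coding genes and 0.118% on X. Chromosomes 8 and 9 stood apart in the other direction when unshared were set against shared peaks. Only 23 of 151 strong peaks on chromosome 8 (15.2%, 10.4 to 21.8) and 42 of 146 on chromosome 9 (28.8%, 22 to 36.6) had no vector peak, against 585 of 900 elsewhere (65%, 61.8 to 68.0). Together they held 10% of the unshared and 42.4% of the shared strong peaks. The share was lower on these 2 chromosomes together than on the others in every class of pileup in the plot of pileups. Chromosome 18, with 6 of 19 strong peaks unshared (31.6%, 15.4 to 54.0), and X, with 1 of 4, had similar shares on few peaks.

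The share of peaks that were strong also differed between chromosomes, without a clear break. Of coding-boundary APOC2 peaks, a pileup of 35 was reached by 50.7% on chromosome 8, 48.8% on 9 and 47.2% on 7. The share was 39% on 16, 37.5% on 15, 21.1% on 13, 11.5% on 19 and 6.90% on X. The median local background of coding-boundary peaks was highest on chromosome 15, at 6.66 fragments. It was 5.83 on 7 and 13, 4.99 on 9 and 16, 4.16 on 8, 3.33 on 19 and 2.54 on X. The part of the local background in these shares was not tested. Within chromosomes, 286 of 618 windows of 5 Mb had an unshared strong peak, and the 10 windows with most held 94 of the 650. The first 5 Mb of chromosome 16 held 17, with 4 shared peaks and 197 coding genes, and 85 to 90 Mb of the same chromosome held 11. On chromosome 9, the windows at 135 to 140 Mb and 125 to 130 Mb held 11 and 10, beside 28 shared peaks in each.

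**Figure D4:**
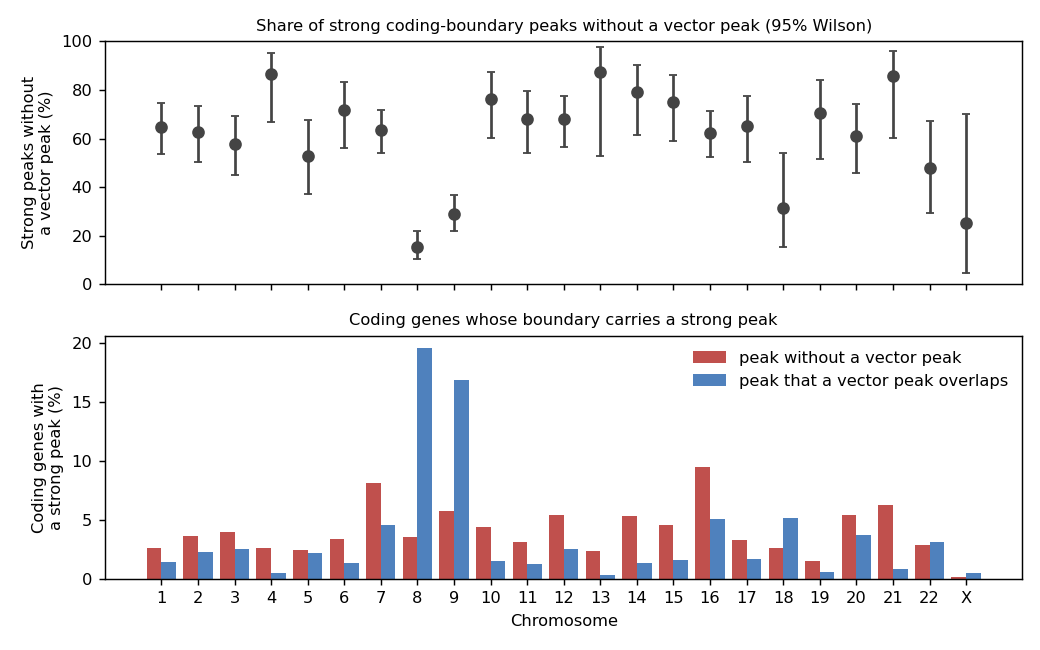
Top, percentage of strong coding-boundary APOC2 peaks without a vector peak on each chromosome, with 95% Wilson intervals. Bottom, percentage of the coding genes of each chromosome whose boundary carries an unshared (red) or a shared (blue) strong peak, from 0. In the top panel chromosome 8 is lowest (15.2%), with X (25%, of 4 peaks), 9 (28.8%) and 18 (31.6%, of 19 peaks) next, and in the bottom panel chromosome 16 has the highest red bar (9.48%).

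The part of the genes with unshared strong peaks that fell into named groups was spread over many cell functions. Grouping coding genes by symbol into 44 families and pathways placed 252 of the 767 genes (32.9%) in a group, against 24.7% of all coding genes. The same share was not worked out for the genes with any APOC2 peak, so the difference is not read as particular to unshared peaks. Of the 44 groups, 42 had at least 1 gene with an unshared strong peak. In 24 groups more genes had unshared than shared strong peaks, in 12 fewer, and in 8 the numbers were equal. Among all coding genes 767 had an unshared and 635 a shared strong peak, so such counts lean to unshared peaks from the start. The same base applies to the shared counts given for each group below. A peak at the boundaries of 2 or more genes was counted for each of them, also across groups, and it need not lie at the start of each. XPO5/POLH, SMYD4/RPA1, EXOSC6/AARS1 and PTPN11/RPL6 are single peaks of this kind. The counts below are descriptions to be read beside the 3.83% of all coding genes with an unshared strong peak. They can also be read beside the 16.1% of coding genes with any APOC2 peak whose peak was strong and unshared.

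DNA repair gave the following counts. Of 126 placed repair genes, 15 (11.9%, 7.35 to 18.7) had one, 5 had a shared strong peak and 60 had any APOC2 peak, so that the 15 made up 25% of those with a peak, against 16.1% of all coding genes with a peak. The nuclease scaffold gene SLX4 had a pileup of 43 and a fold enrichment of 5.18, and the nuclease subunit gene EME2, at a peak that also lies at SPSB3 and NUBP2, 39 and 6.67. FANCA, of the Fanconi anaemia core complex, had 38 and 6.23, XRCC3, of homologous recombination, 38 and 5.09, and the mismatch repair gene MSH6 35 and 4.24. The damage recognition gene XPC, at the same peak as LSM3, had 35 and 6.96. The DNA polymerase genes POLB, POLH and POLN had pileups of 38, 37 and 38. The POLH peak also lies at XPO5, and the POLN peak at HAUS3. SLX1A and SLX1B, with 36 and 47, are near-identical copies beside the likewise duplicated BOLA2 genes, and reads cannot be placed between them with certainty. Both are counted in the 15, as are PARP10, PARP16 and RAD54L2, with 35 each, which are in the group by name. In DNA replication 4 of 65 genes (6.15%) had one, with RRM2B, a ribonucleotide reductase subunit, at 56 and 10.3. MCM3AP, at 43, matched the name pattern of this group but encodes a protein of messenger RNA export. RPA1, the single-strand binding protein, had 42, at a peak that also lies at SMYD4, and POLD2, a DNA polymerase delta subunit, 40.

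Protein turnover was represented by the proteasome and by substrate receptors of cullin ubiquitin ligases. Of 50 proteasome genes, 6 (12%, 5.62 to 23.8) had an unshared strong peak and 3 a shared one. They were PSMC5 with a pileup of 41, PSMD3 with 38, PSMB9 with 37, PSMD13 with 36, and PSMD12 and PSME3 with 35 each. PSMB9, a subunit of the immunoproteasome, has its peak in common with TAP1, the peptide transporter of antigen presentation. In the F-box and cullin group, 14 of 124 (11.3%, 6.85 to 18.1) had one and 6 a shared one. FBXO24 was the strongest with 85, followed by FBXO45 with 48 and KLHL7 with 47. Of the deubiquitinases 3 of 69 had one, with USP48 at 51, and of the E1 and E2 enzymes 1 of 42, UBE2H at 39.

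Translation genes were counted in several groups, whose intervals overlap. In the initiation and elongation group, which holds factors and their modifying enzymes by name, 9 of 75 (12%, 6.44 to 21.3) had an unshared strong peak and 3 a shared one. EIF4H, which stimulates the initiation helicase, was highest with 49, and EIF5 and EIF1AX had 37 each. The eIF2 kinase genes EIF2AK1, EIF2AK3 and EIF2AK4, which lower initiation under stress, had 35, 37 and 36. EEF2KMT at 40 and EEF1AKMT2 at 36 encode methyltransferases of elongation factors and are in the group by name. Mitochondrial ribosomal proteins had 6 of 78 (7.69%) and 2 shared, with MRPS5 at 67, MRPS26 at 42 and MRPS25 at 41. Cytosolic ribosomal proteins had 6 of 88 (6.82%, 3.16 to 14.1), beside 8 with a shared strong peak, with RPL7A at 60, RPL6 at 51 and RPL13 at 48. Ribosome biogenesis had 4 of 66, with UTP4 at 54, and aminoacyl-tRNA synthetases 2 of 39, IARS2 at 44 and AARS1 at 42. Enzymes that modify transfer or ribosomal RNA had 3 of 74, with PUS7 at 60.

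RNA synthesis and processing followed. RNA polymerase subunits had 4 of 35 (11.4%, 4.54 to 26) and 1 shared. POLR2D, of polymerase II, had 58 and 6.33, POLR2C 47 and 8.01, POLR3K, of polymerase III, 42, and POLR2J, one of the near-identical copies, 41. RNA exosome and decay genes had 7 of 62 (11.3%) beside 6 shared, with LSM6 at 47, LSM8 at 44 and EXOSC6 at 42. DDX and DHX helicases had 6 of 54 (11.1%) beside 2, with DHX9 at 43, DDX54 at 42 and DDX51 at 39. The spliceosome group had 10 of 156 (6.41%) beside 8, with RBM15B at 57, RBM6 at 45 and PRPF4 at 42. The Integrator and cleavage group had 3 of 33 (9.09%, 3.14 to 23.6) beside 5 shared, and general transcription factors 1 of 68, SNAPC4 at 49, beside 4. Mediator had 1 of 33, MED22, beside 2, and the nuclear pore and transport group 2 of 61, NUP214 at 41 and XPO5 at 37, beside 4.

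Chromatin regulators, the functional class of PHF8 itself, were among them. Lysine demethylases and methyltransferases had 6 of 82 (7.32%, 3.40 to 15.1) and 3 shared. All 6 belong by name to methyltransferase families: SMYD2 at 45 with a fold enrichment of 8.31, SMYD4 at 42 with 10.1, SETD6 at 41 with 6.15, SETD9 at 36, EZH2, the catalytic subunit of Polycomb repressive complex 2, at 36, and KMT2C, a methyltransferase of enhancers, at 35. Acetylation and remodelling genes had 8 of 101, equal to the shared count, and 3 of these were subunits of the SWI/SNF remodeller, namely SMARCA4 at 46 with a fold enrichment of 10.9, SMARCD1 at 42 with 9.67 and SMARCC1 at 37 with 3.003. CREBBP and KAT6A, histone acetyltransferases, had 36 each. Cohesin and condensin genes had 3 of 29, NCAPH2 at 45, NSMCE3 at 42 and WAPL at 42. None of 69 replication-dependent histone genes had a strong peak of either kind, and 1 had any APOC2 peak.

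Zinc finger genes gave the highest absolute count and an average share. Of 556 genes 23 (4.14%, 2.77 to 6.13) had an unshared and 21 a shared strong peak. ZSCAN25 at 62, ZKSCAN2 at 61 and ZNF627 at 46 were the highest. Developmental factor families had 3 of 146, FOXJ3 at 45, the mitotic regulator FOXM1 at 44 and FOXD2 at 42, and 0 shared. ZBTB genes had 1 of 41, ZBTB39 at 40.

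Signalling, metabolism and traffic completed the picture. Growth factor and MAPK genes had 12 of 167 (7.19%) beside 10, with PTPN11 at 51, MAPK9 at 45 and MAP4K3 at 43. WNT, MYC and colon cancer driver genes had 2 of 72, CTNNB1, which encodes beta-catenin, at 42 with a fold enrichment of 5.06 and MSH6 at 35, beside 4 shared. TGF-beta, EMT and adhesion genes had 2 of 198 (1.01%, 0.277 to 3.61), ACVR1B at 52 and SMAD5 at 43, beside 2. Lipid and cholesterol genes, the field of APOC2 itself, had 7 of 156 (4.49%, 2.19 to 8.97) beside 6, close to the share of all coding genes. The highest were the acyl-CoA thioesterase ACOT7 at 48, MVD, of the mevalonate pathway, at 45, and, with 42 each, HMGCS1, of the same pathway, and the WNT coreceptor LRP6, which is in the group by name. Cell cycle genes had 6 of 160 (3.75%), and the first 3 by pileup included the subunits ANAPC2 at 56 and CDC16 at 44 of the anaphase-promoting complex, with CENPV at 43. Oxidative phosphorylation had 7 of 121 beside 11 shared, with NDUFV3 at 45, UQCRQ at 39 and NDUFC2 at 38. Chaperones had 7 of 110 beside 3, with CCT2 and TRAP1 at 43 and PDIA4 at 39. Vesicle traffic had 15 of 340 (4.41%) beside 16, with AP3B1 at 53, VPS36 at 52 and ARF5 at 45. Solute carriers had 12 of 363 beside 9, with SLC7A6 at 62 and SLC25A25 at 53, and SLC7A6OS, which is no transporter, at 48. TMEM genes had 7 of 232 beside 15, with TMEM245 at 58, TMEM177 at 42 and TMEM250 at 40.

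**Figure D5:**
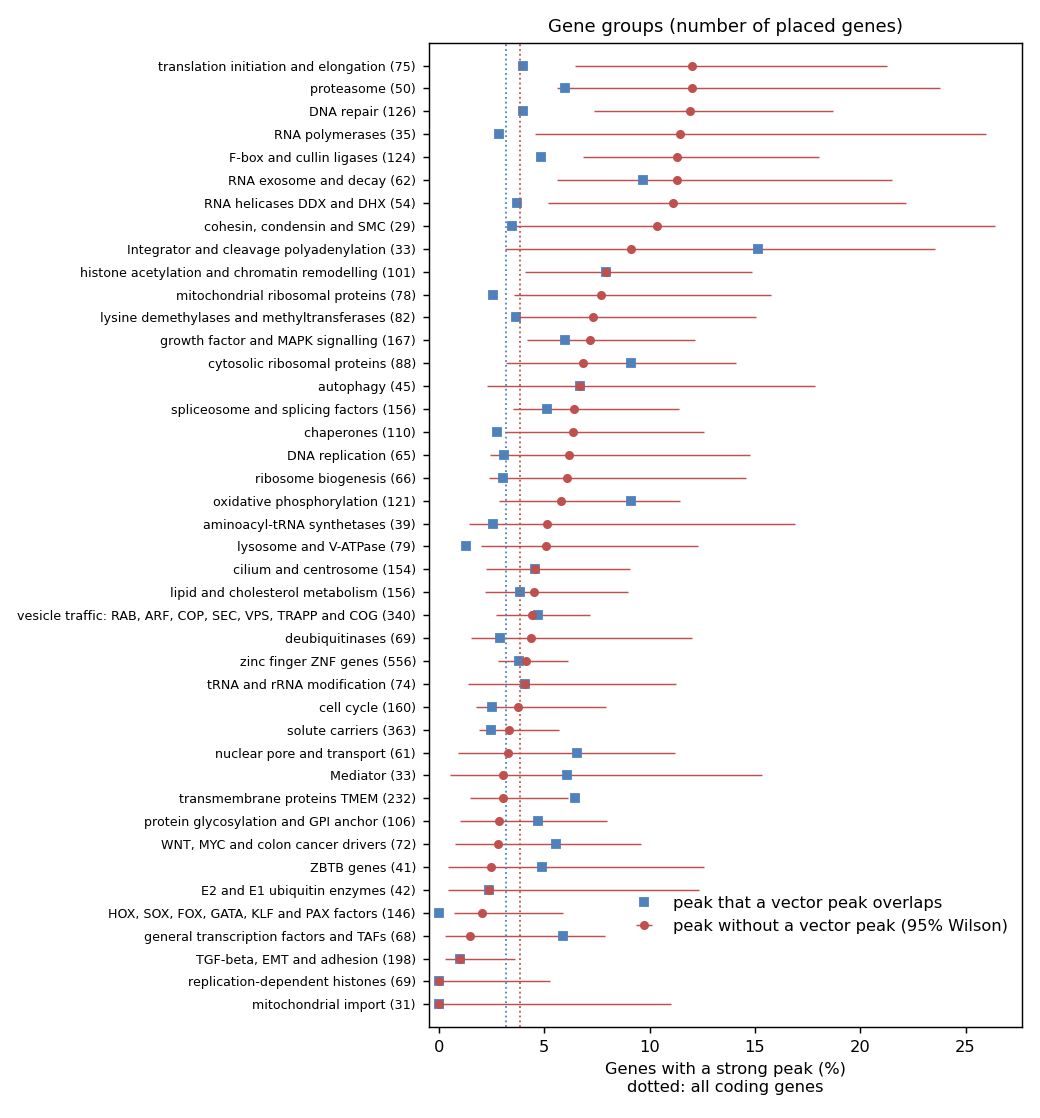
Percentage of the placed genes of 42 of the 44 groups (numbers in brackets) with an unshared strong peak (red points with 95% Wilson intervals) and with a shared strong peak (blue squares). The dotted lines mark all coding genes, 3.83 and 3.17%. DNA repair, translation initiation and elongation, the proteasome and RNA polymerases lie between 11.3 and 12% on the red scale. So do RNA exosome and decay, and F-box and cullin ligases.

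In 9 groups the interval began above 3.83%. The groups overlap in part, 44 were looked at, and the intervals cover counting error alone. All 9 also had more genes with any APOC2 peak than the 23.8% of coding genes, from 35.2% of the DDX and DHX helicases to 62.9% of the RNA polymerases. Among genes with any APOC2 peak, those with an unshared strong peak made up 31.6% for the DDX and DHX helicases. The share was 26.5% for the initiation and elongation group, 25% for DNA repair and 24.1% for F-box and cullin ligases. It was 24% for the proteasome and 21.6% for acetylation and remodelling. The shares were closer to the 16.1% of all such genes for growth factor and MAPK genes (19.4%), RNA exosome and decay (18.4%) and RNA polymerases (18.2%). The median length of genes with an unshared strong peak was 29.8 kb, with a shared one 31.9 kb, and of all coding genes 24.1 kb.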

How the data were processed

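Reads were aligned with Bowtie2 2.2.9 to hg38 and peaks called with MACS2 2.0, with HOMER also named, per the submitters' processing notes. The control library, the calling thresholds and the treatment of duplicate reads are not given in the sources used here. Per the file headers, the deposited tables hold the pileup signal at each summit and the fold enrichment, a ratio over the local background. The deposited columns without a name were read as -log10 of the p-value and of the q-value, from their place and values. Peaks were called per library, and read totals, and so the absolute depth, are unknown. Here the background was computed as (pileup + 1) / fold enrichment - 1. The APOC2 backgrounds lay on steps of 0.8325 fragments (64.3% of those above 1.5, within 0.01 of a step), by which APOC2 pileups were divided for scaled values, and the vector pileups on steps of 0.98953. With the same control, the APOC2 library would have 0.824 times the vector depth.

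Genes, start sites and promoter windows came from RefSeq tables (GRCh38.p14, the same primary assembly as hg38), in which 15842 coding genes had a window. Exons were not used. Shares carry 95% Wilson intervals and medians 95% binomial order-statistic intervals. A ratio of medians spans from its lowest to its highest value within these. No test was run, because each condition had 1 library. Overlap and boundary assignments were tested on 2000 simulated peaks, of which 100% were assigned right, with Python 3.11.15, pandas 2.3.3, numpy 2.4.6 and scipy 1.17.1. The regions, gene groups and motifs were chosen with earlier results of these data known. Named peaks were the 10 highest by pileup, the 10 highest by fold enrichment, the 5 longest, the 3 on each side of the pileup minimum, up to 3 per gene group and the 5 highest shared. Further genes named within groups, and those near a vector peak, were chosen after their values were seen. The results of 2 gene groups are in part not reported here.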

Additional observations from a re-analysis of the deposited data

How the results depend on the processing

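The 7 quantities were recomputed under 10 alternatives, which gave 65 values. Of these, 47 stayed within 1.5 times a count or inside the interval of the reported value, 18 moved and 0 reversed. With a pileup minimum of 30 there were 1272 unshared strong peaks, 65.3% of the strong peaks, at 1493 genes. With a minimum of 45 there were 140, or 32.8%, at 167 genes, 14.3% of them on chromosomes 8 and 9. Requiring 50% of both peaks to overlap gave an unshared share of 65.3%, a fold enrichment ratio of 0.738, a length ratio of 0.809 and 16.8% on chromosomes 8 and 9. A fold enrichment of at least 5 left 400 unshared peaks, 44.1%, at 480 genes, with a fold enrichment ratio of 0.784. Fold enrichment of at least 7 in place of pileup gave a share of 44.8%. Without chromosomes 8 and 9, an alternative chosen after the data were seen, the share was 65% and the length ratio 0.725. In every alternative that gave the ratios, the fold enrichment and length ratios were below 1. The cause of these shifts was not tested, apart from the smaller or larger sets that a stricter or looser minimum leaves. Windows of 0.5 and 2 kb, a 1 kb margin for overlap and a q of at most 0.001 moved none of the 7. No paired analysis was possible because each condition had 1 library. Without replicates and read totals, neither variation between cultures nor depth limits could be measured.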

Other observations

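Of the 20 unshared strong peaks with a vector peak within 1 kb, several lay beside a shared strong peak of the same gene. In all, 14 genes carried an unshared and a shared strong peak. At ZMYND19 the unshared peak had a pileup of 53 and the shared one 47, and the vector peak began 262 bp away. At RRM2B, a p53-inducible ribonucleotide reductase subunit gene, the unshared peak had 56 and the shared one 45. At MVD, of the mevalonate pathway, the values were 45 and 50, at RNPS1, a splicing factor, 45 and 64, and at ARIH1, a ubiquitin ligase, 40 and 42. CCDC47 and DDX42 had the same pair of peaks, with 36 and 61. SEC16A had them farther apart, with 38 unshared and 75 shared, and so did SPOUT1, with 52 and 50. The unshared peak was the higher of the pair at ZMYND19, RRM2B and SPOUT1, and the lower at the other 11. These genes were chosen after their values were seen, and at them the vector-transfected cells did have a PHF8 peak at the gene.

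An autophagy gene, ATG4D, had one of the higher unshared pileups, 58, over so high a background that its fold enrichment was 2.81. The other autophagy genes with an unshared strong peak were ATG2B with 36 and WDR45B with 35, so 3 of 45 had one, beside 3 with a shared strong peak. Among lysosome and V-ATPase genes 4 of 79 had one, beside 1 shared. They were the protease CTSB with 50, the Rag GTPase genes RRAGA and RRAGC, which recruit mTORC1 to the lysosome, with 36 each, and ATP6V1H with 35. Cilium and centrosome genes had 7 of 154, equal to the shared count, with CEP57L1 at 42 and CEP68 and CEP19 at 39. TTC9C matched that group by name only. Glycosylation and GPI anchor genes had 3 of 106 beside 5, STT3B at 39, PIGX at 39 and PIGS at 36. None of 31 mitochondrial import genes had a strong peak of either kind, and 11 had any APOC2 peak.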
